A study of Mus musculus with 16 samples.

Results

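The oocyte-expressed genes described here are 34 genes listed by name for their known expression in the female germ cell. Of the 34, 32 had a probe set that the array annotation assigns to that gene alone, and 31 had one with a mean signal high enough to be tested, among 12172 genes tested in all. Npm2, a histone chaperone of the egg, was listed for no probe set in the annotation used. Oog1 was covered only by 2 probe sets that it shares with other genes, and these were not used. Ddx4, the germ cell RNA helicase Vasa, had 1 probe set with a mean log2 signal of 3.55 over the 16 arrays (2.38 to 5.56), below the threshold of 4.18, and was not tested.

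The arrays hold RNA of mouse ovarian follicles in culture. Preantral to small antral follicles were dissected from ovaries of C57BL/6Tac females, whose age is 8 weeks in the sample labels and a range of 6 to 8 weeks in the description of the design, and for each experiment the follicles of 8 mice were pooled. Each array represents 6 to 9 follicles cultured in single drops, from which 5 ng of total RNA was amplified. There were 4 groups of 4 arrays, 16 in all: untreated follicles for 12 h, follicles with 50 ng/ml recombinant anti-Müllerian hormone (AMH) for 12 h, and the same arms for 24 h. The medium of every group, controls included, contained 80 IU/L follicle-stimulating hormone and 10 IU/L luteinizing hormone. The comparisons ask whether AMH, a hormone made by the granulosa cells of small follicles, changed transcript levels after 12 or 24 h, and how levels differed between the times. Both arms of a replicate came from one pool, which gave 4 pairs of arrays per time for the AMH comparison.

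A follicle is 1 oocyte wrapped in granulosa cells, with theca cells outside. The growing oocyte builds the zona pellucida, a glycoprotein coat through which it touches the granulosa cells, and stores messenger RNAs and proteins for the meiotic divisions and the early embryo. The basic helix-loop-helix factors FIGLA and SOHLH1 and the homeodomain factors NOBOX and LHX8 direct much of this programme in primordial and growing oocytes. Because a whole follicle was measured, several sources of a lower oocyte signal cannot be told apart. Among them are fewer or smaller oocytes in a sample, a larger share of RNA from the other cells, and less of a transcript per oocyte.

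The upstream sequences of 6 members are shown because they contrast 3 genes that moved with the rest of the set across the arrays (Zp3, Rfpl4 and Oosp1) with the 3 that did not (Sohlh1, Sycp3 and Uchl1). Each is the 200 bases before the annotated start in RefSeq on GRCm38.p6, written 5′ to 3′ on the gene's strand. Capitals mark E boxes, CANNTG, the core that basic helix-loop-helix proteins bind.

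Zp3 (chr5:135979905-135980104, plus strand): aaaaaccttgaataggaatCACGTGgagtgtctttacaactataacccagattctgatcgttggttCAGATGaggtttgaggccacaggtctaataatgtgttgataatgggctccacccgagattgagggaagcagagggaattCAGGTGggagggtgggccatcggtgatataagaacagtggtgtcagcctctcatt
Rfpl4 (chr7:5116912-5117111, minus strand): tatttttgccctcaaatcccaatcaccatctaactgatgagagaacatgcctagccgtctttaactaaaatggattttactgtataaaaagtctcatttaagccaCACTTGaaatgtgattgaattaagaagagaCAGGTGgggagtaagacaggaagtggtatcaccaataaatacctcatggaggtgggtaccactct
Oosp1 (chr19:11691052-11691251, minus strand): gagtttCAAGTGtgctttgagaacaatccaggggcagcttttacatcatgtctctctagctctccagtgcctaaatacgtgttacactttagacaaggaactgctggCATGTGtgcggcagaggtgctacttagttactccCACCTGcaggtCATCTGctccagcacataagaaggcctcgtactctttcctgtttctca
Sohlh1 (chr2:25847249-25847448, minus strand): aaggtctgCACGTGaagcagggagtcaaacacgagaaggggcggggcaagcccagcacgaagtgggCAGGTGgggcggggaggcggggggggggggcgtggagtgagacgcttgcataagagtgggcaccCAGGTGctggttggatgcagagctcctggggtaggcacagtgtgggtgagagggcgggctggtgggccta
Sycp3 (chr10:88459387-88459586, plus strand): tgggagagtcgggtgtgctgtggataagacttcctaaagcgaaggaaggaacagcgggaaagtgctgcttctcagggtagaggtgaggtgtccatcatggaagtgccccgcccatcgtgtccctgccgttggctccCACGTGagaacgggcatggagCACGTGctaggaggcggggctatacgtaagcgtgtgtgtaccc
Uchl1 (chr5:66675921-66676120, plus strand): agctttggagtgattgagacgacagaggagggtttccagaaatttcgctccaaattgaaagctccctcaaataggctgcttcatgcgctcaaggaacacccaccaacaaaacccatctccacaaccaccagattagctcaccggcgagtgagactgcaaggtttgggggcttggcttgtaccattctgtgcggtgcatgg

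RefSeq promoter windows of 300 bases (250 before the start to 50 after it) were found for 27 of the 34 genes, some with more than 1 start, 30 windows in all. An E box, which reads the same on both strands, occurred in 28 of these 30 windows (93.3%), against 72.3% of 32851 promoters of the same length. Among the members that moved together it occurred in 24 of 25 windows (96.0%), the exception being Lhx8. Sohlh1 and Sycp3 also hold E boxes, and Uchl1 holds none in its window, so the motif was present in genes that moved together and in genes that did not. Of 3 homeodomain cores searched on both strands, TAATTG was found in 4 of 30 windows (13.3%, against 8.00% of all promoters), TAATTA in 1 (3.33%, against 5.29%) and TGATTG in 6 (20.0%, against 14.0%). The median number of CpG dinucleotides was 5.5 per window for the members and 7 for all promoters. These matches describe the letters of the windows and say nothing about binding.

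Several members lie close together in the genome. Omt2a (chr9:78311972-78314797), Omt2b (chr9:78328030-78329620) and Ooep (chr9:78376903-78378588) are neighbours on chromosome 9, and Zp1 (chr19:10914296-10920601) and Oosp1 (chr19:11667460-11691051) lie within the same stretch of chromosome 19. Omt2a and Omt2b share sequence, and a probe set assigned to both gave r = 0.92 with the probe set used for Omt2a and r = 0.94 with that for Omt2b. Because of the shared sequence, signal from one of these genes may reach the other's probe set, and their values are uncertain as separate measurements. These r cannot show whether it does, since most members vary together across the arrays. The second probe set for Dazl gave r = 0.90 with the one used. Values below are log2 signals of 1 probe set per gene, and levels of different genes were not compared, since probe sets differ in response.

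Expression of most oocyte genes rose and fell together from array to array, within groups that had the same treatment and time. The mean log2 signal of the 31 members was 7.94, 7.56, 8.68 and 6.44 in replicates 1 to 4 of the 12 h controls. It was 7.44, 7.54, 7.81 and 7.48 with AMH for 12 h, 7.44, 7.15, 7.17 and 8.48 in the 24 h controls, and 8.33, 6.96, 7.17 and 7.25 with AMH for 24 h. The highest and lowest arrays were thus replicates of the same group, the 12 h controls, and differed 4.74-fold. Control 12 h replicate 3 held the highest value of 23 members, and control 12 h replicate 4 held the lowest of 21. Control 24 h replicate 4 and AMH 24 h replicate 1 also stood above the other 3 arrays of their groups. The group means overlapped widely, at 7.66 ± 0.94 and 7.57 ± 0.17 for control and AMH at 12 h, and at 7.56 ± 0.63 and 7.43 ± 0.61 at 24 h (SD, n = 4 each).

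**Figure D1:**
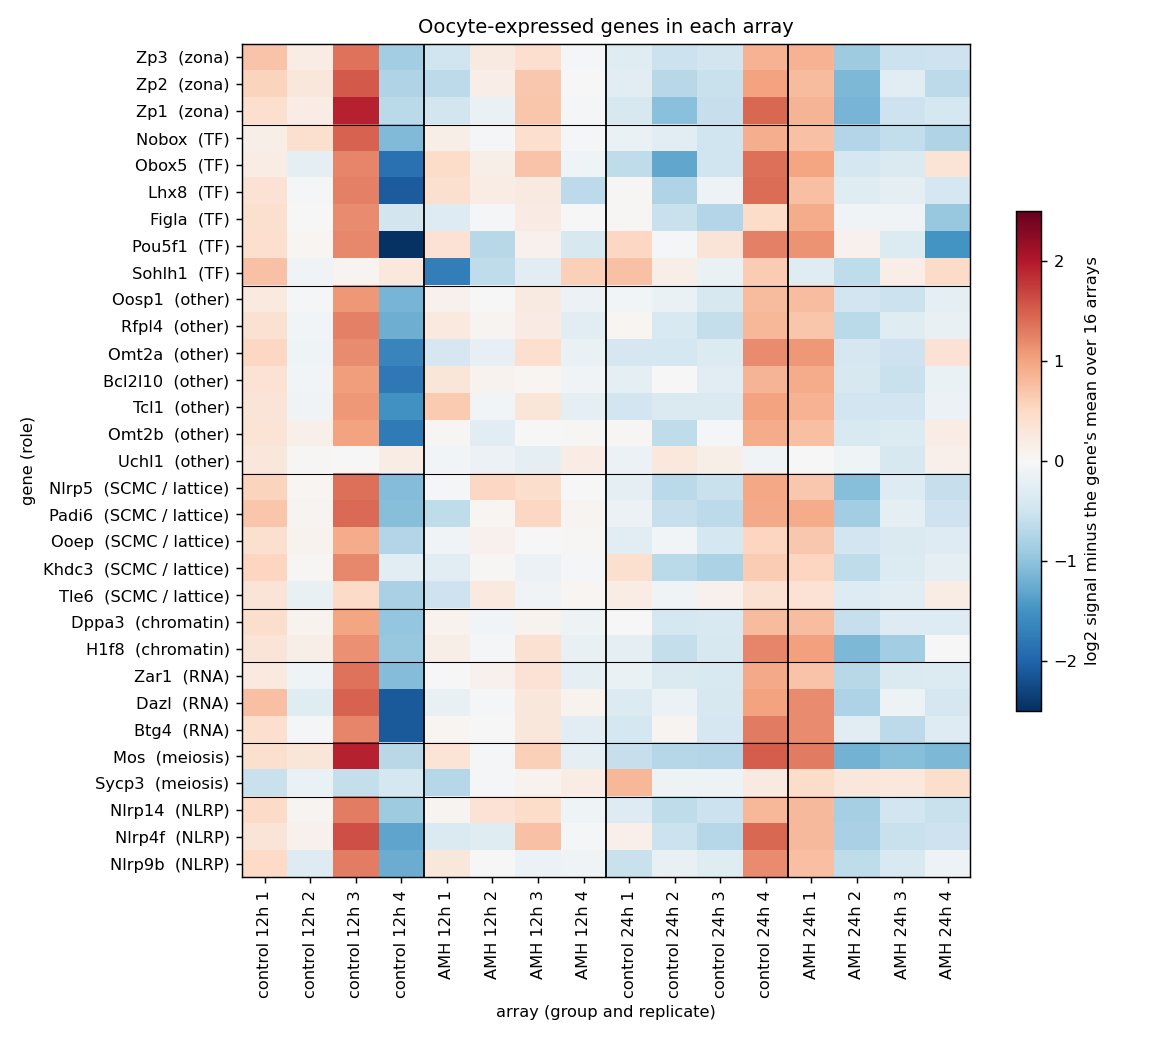
Log2 signal of the 31 tested members (rows, grouped by role) in each of the 16 arrays (columns, by group and replicate), with each gene centred on its mean over the arrays, as the colour scale shows. Control 12 h replicate 3 is the highest column for 23 members and control 12 h replicate 4 the lowest for 21, while the rows of Sycp3, Sohlh1 and Uchl1 do not show this pattern.

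For each gene the deviations from its group means were compared with the mean deviation of the other 30 members over the 16 arrays. These correlations describe arrays of unequal oocyte signal and carry no test. In 28 members Pearson's r lay between 0.81 (Tle6) and 0.99 (Dppa3), and Spearman's rho between 0.69 and 0.94. With the 4 arrays named above left out of the correlation, the median r of these 28 genes was 0.77 (n = 12). It ran from 0.29 (Pou5f1) to 0.92, weaker than over all 16 arrays. The deviations were still those from group means of all 16 arrays, so the left-out arrays still enter these r. The slope ran from 0.48 for Tle6 to 1.45 for Mos, where 1 means that a gene moved as much as the others did on average. Tle6, a corepressor-like member of the maternal complex beneath the oocyte surface, thus moved least of the 28, over a 2.45-fold range. Mos, the kinase that holds the egg at meiotic metaphase, moved most per unit and spanned 8.58-fold.

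Pou5f1, the pluripotency factor Oct4 that growing oocytes also express, had the widest range of all members. Its values were 4.83, 4.46, 5.61 and 1.95 in the 12 h controls and 4.77, 3.72, 4.52 and 4.01 with AMH at 12 h. They were 4.93, 4.36, 4.75 and 5.67 in the 24 h controls and 5.54, 4.52, 4.08 and 2.92 with AMH at 24 h. The range of 3.72 on the log2 scale (13.2-fold) rests on control 12 h replicate 4, whose signal lay near the floor of the scale. Dazl, an RNA-binding translation factor of germ cells, spanned 3.58 and reached its lowest value, 4.14, in the same array. Lhx8 spanned 3.48 and Btg4, an adaptor of maternal mRNA deadenylation, 3.40, again with the lowest values in that array.

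Uchl1, a deubiquitinase abundant in oocytes and neurons, had the narrowest range, 0.68 (1.60-fold). Its values were 9.78, 9.53, 9.52 and 9.70 in the 12 h controls and 9.44, 9.36, 9.26 and 9.69 with AMH at 12 h. They were 9.35, 9.77, 9.65 and 9.41 in the 24 h controls and 9.49, 9.39, 9.10 and 9.63 with AMH at 24 h. The 12 h control arrays that were highest and lowest for most members read 9.52 and 9.70 for Uchl1, in the opposite order. Its r with the other members was -0.23 (rho -0.25). Sohlh1 gave r = 0.07 and Sycp3 r = 0.08, and the slopes of the 3 genes lay between -0.06 and 0.06. The 28 genes and these 3 are thus divided by an r of 0.8 over 16 arrays. With the 4 arrays left out of the correlation, r was 0.31 for Sohlh1, 0.28 for Sycp3 and -0.16 for Uchl1 (n = 12). These r also use deviations from the group means of all 16 arrays. The values of Sohlh1 and Sycp3 lay beside the 0.29 of Pou5f1.

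**Figure D2:**
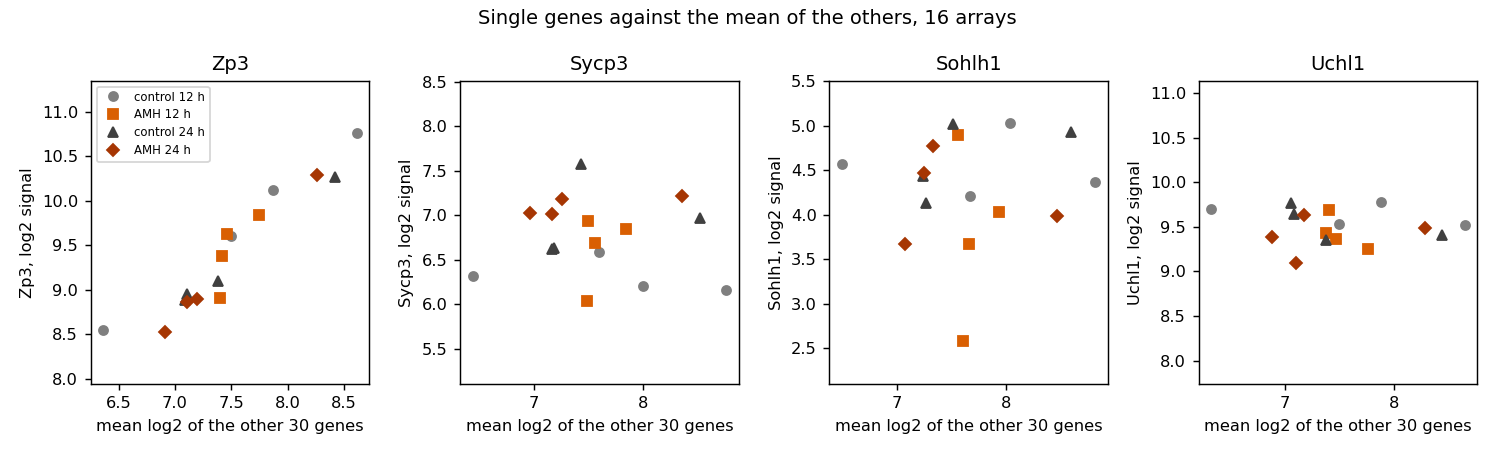
Log2 signal of Zp3, Sycp3, Sohlh1 and Uchl1 (vertical axes) against the mean log2 signal of the other 30 members (horizontal axes), 1 point per array, with symbols for treatment and time. Zp3 rises with the other members across the arrays (r = 0.97 of the deviations from group means), whereas Sycp3 (0.08), Sohlh1 (0.07) and Uchl1 (-0.23) do not.

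Transcripts outside the list showed the same array pattern. The 5 non-members most like the mean of the members, by r of the deviations over 16 arrays among 12141 genes, were Platr30 (0.99), Tcl1b1 (0.99), Mbl2 (0.99), Tcl1b3 (0.99) and Umodl1 (0.99). Gdf9, a growth factor that the oocyte secretes to the granulosa cells, ranked 19th with r = 0.98, and its partner Bmp15 ranked 62nd with r = 0.96. In all, 425 non-members reached r of 0.8 and 36 fell to -0.8 or below. A second list of oocyte genes, 26 of 33 measured, varied 6.10-fold between arrays in its mean and gave r = 0.99 with the members.

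Marker lists of other cell types did not follow the members closely over the 16 arrays, with r from -0.42 to 0.25. Their ranges, given next, run over all 16 arrays and so include any difference between the times, whereas the members' extremes both lay in the 12 h controls. Within those controls the granulosa mean ran from 7.55 to 8.85 and the members' mean from 6.44 to 8.68. Control 12 h replicate 3, highest for most members, also had the highest immune (7.52) and endothelial (7.81) means of the 16 arrays. Its granulosa mean, 7.55, was the lowest of all. Control 12 h replicate 4, lowest for most members, stood at 6.69, 7.12 and 8.70 in these 3 lists. The part of cell composition in these extremes was not tested. The mean of 10 granulosa genes spanned 5.08-fold (r = -0.23 with the members), 4 measured theca genes 4.94-fold (-0.30), 8 stromal and smooth muscle genes 4.33-fold (0.25), and 6 surface epithelial genes 3.02-fold (-0.42). For 5 measured immune genes the range was 3.85-fold (r = -0.07) and for 6 endothelial genes 3.81-fold (0.12). Insl3, Hhip and Ptprc had no probe set above the threshold. The spread between replicates was correspondingly wide for the members: the median within-group SD was 0.74, against 0.27 over all genes, and 95.02% of all genes had a smaller SD than the median member. Within the 28 genes it was 0.74, and 0.29 after the mean of Gdf9 and Bmp15 in the same array had been subtracted. A comparison adjusted for Gdf9 and Bmp15, genes outside the list, was therefore run beside the unadjusted one, and it gives changes relative to the level of these transcripts.

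**Figure D3:**
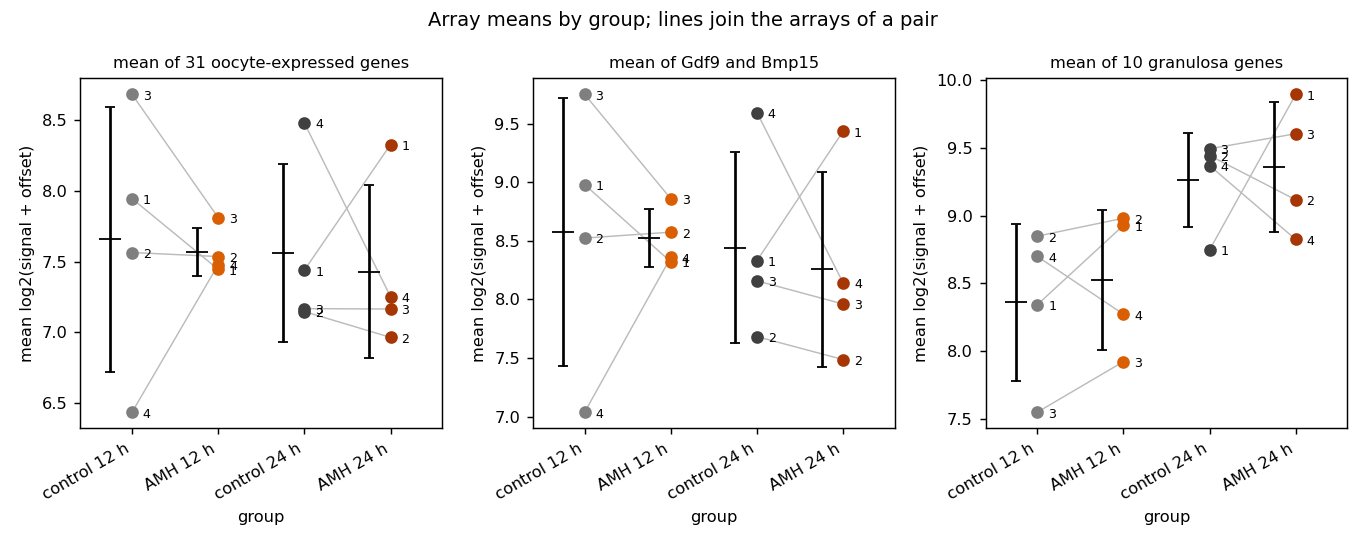
Mean log2 signal of the 31 members, of Gdf9 and Bmp15, and of 10 granulosa cell genes (1 panel each) in the 4 groups, with 1 point per array marked by its replicate number, bars for the mean ± SD of 4 arrays, and grey lines joining the arrays of a pair. The members' group means lie between 7.43 and 7.66, and the granulosa genes' means are 8.36 and 8.53 at 12 h against 9.26 and 9.36 at 24 h.

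AMH produced no call among the oocyte genes at 12 h. None of the 31 members passed an adjusted p of 0.05 in limma, with 0% of the 12172 genes called, and none had an unadjusted p under 0.05, against 6.47% of all genes. The members' changes from control ranged from -0.75 to 0.47 on the log2 scale with a median of -0.05, 10 above 0 and 21 below, where the median of all genes was 0.01. No member had AMH arrays wholly above or below the control arrays, which 2.61% of all genes did. Pair by pair the mean of the members differed by -0.50, -0.03, -0.87 and 1.04, so pairs 1 and 3 were lower with AMH and pair 4 higher. Control 12 h replicates 3 and 4, which stood apart, are the control arrays of pairs 3 and 4.

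At 24 h again no member passed, with 0.0164% of all genes called (2 genes), and none had an unadjusted p under 0.05, against 4.07%. Changes ranged from -0.66 to 0.39 with a median of -0.14, 4 above 0 and 27 below, and the median of all genes was again 0.01. No member's groups were without overlap, against 2.05% of genes. The pair differences of the members' mean were 0.89, -0.18, -0.003 and -1.23, and those of pairs 1 and 4 have opposite signs. Of the 27 members below 0, 25 are among the 28 that vary together, so the 27 do not amount to separate measurements.

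Averaged over both times no member passed, with 0% of all genes called, and 0 members against 4.81% of genes had an unadjusted p under 0.05; the median change was -0.10. The change of the AMH effect from 12 to 24 h also gave 0 members, with 0% of genes called, and 0 members against 5.64% of genes at the unadjusted threshold. These results do not show that AMH left oocyte transcripts unchanged, because the 95% intervals were wide. For the 31 genes the lower bounds reached -1.68 and the upper bounds 1.39 at 12 h, and -1.95 and 1.32 at 24 h.

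The zona pellucida genes Zp1, Zp2 and Zp3, which encode the 3 glycoproteins named after that coat, were on average lower with AMH at 12 h without passing the test. Zp3 was 10.12, 9.60, 10.76 and 8.55 in the 12 h controls and 8.90, 9.63, 9.84 and 9.37 with AMH. Zp2 was 9.16, 8.89, 10.14 and 7.86 in these controls and 7.96, 8.78, 9.29 and 8.60 with AMH. Zp1 was 7.88, 7.65, 9.40 and 6.79 in controls and 7.01, 7.30, 8.15 and 7.41 with AMH. Over the 3 genes the AMH array differed from its control by -1.24 to -0.85 in pairs 1 and 3 and by 0.61 to 0.83 in pair 4, and the groups overlapped. The changes were -0.46 for Zp1 (95% interval -1.38 to 0.46, adjusted p = 0.892 in limma), -0.35 for Zp2 (-1.21 to 0.51, adjusted p = 0.929) and -0.32 for Zp3 (-1.16 to 0.52, adjusted p = 0.937).

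At 24 h the changes of the zona genes lay nearer to 0. Zp3 was 9.10, 8.88, 8.95 and 10.27 in controls and 10.29, 8.53, 8.86 and 8.89 with AMH. Zp2 was 8.34, 7.92, 8.06 and 9.61 in controls and 9.39, 7.48, 8.33 and 7.95 with AMH. Zp1 was 7.05, 6.41, 6.88 and 8.90 in controls and 8.31, 6.31, 6.95 and 7.02 with AMH. In all 3 genes 1 array of each group was far above the other 3, replicate 4 of the controls and replicate 1 of the AMH arm, and the changes were -0.17 for Zp1, -0.19 for Zp2 and -0.16 for Zp3 (adjusted p = 1 in limma for each).

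Among the transcription factors, Sohlh1 had the smallest p of all members at 12 h. It was 5.03, 4.21, 4.36 and 4.57 in controls and 2.58, 3.67, 4.03 and 4.89 with AMH, a change of -0.75 (1.68-fold lower, SE 0.42, adjusted p = 0.801 in limma). The largest pair difference was -2.45 in pair 1, and pair 4 went the other way at 0.32. At 24 h Sohlh1 was 5.02, 4.44, 4.14 and 4.93 in controls and 3.99, 3.67, 4.47 and 4.78 with AMH, a change of -0.41 with overlapping groups. Over both times it gave -0.58 (SE 0.30, adjusted p = 0.999 in limma), and most of its values lie close to the threshold of 4.18, where signals are least certain. Pou5f1 had the smallest p at 24 h, with a change of -0.66 (SE 0.59, adjusted p = 1 in limma), and its pair differences were 0.60, 0.16, -0.67 and -2.74. Without replicate 4 the change was 0.033, so its direction rests on that replicate.

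Figla was 5.00, 4.62, 5.79 and 4.15 in the 12 h controls and 4.28, 4.57, 4.82 and 4.60 with AMH. At 24 h it was 4.64, 4.04, 3.88 and 5.07 in controls and 5.53, 4.52, 4.53 and 3.66 with AMH. Its AMH effect was 0.47 higher at 24 h than at 12 h (95% interval -0.75 to 1.69, adjusted p = 0.95 in limma), and the groups overlapped at both times. Nobox and Lhx8 changed by -0.12 and 0.16 at 12 h and by -0.33 and -0.19 at 24 h, with adjusted p in limma of 0.987 or higher. Obox5, a homeobox gene of the oocyte, was the member with the highest AMH-to-control difference at both times, 0.47 at 12 h and 0.39 at 24 h (adjusted p in limma of 0.89 and 1).

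The maternal complex beneath the oocyte surface and the cytoplasmic lattices, structures needed for cleavage of the early embryo, were represented by Ooep, Nlrp5, Padi6, Tle6 and Khdc3. All 5 had negative changes at both times, from -0.48 to -0.003 at 12 h and from -0.19 to -0.06 at 24 h, and none passed. Of the 31 members, 21 were below 0 at 12 h and 27 at 24 h, against 5847 and 5895 of all 12172 genes. The 5 genes vary together across arrays, so their common sign does not amount to 5 separate measurements. Khdc3 was 5.89, 5.38, 6.57 and 5.09 in the 12 h controls and 5.08, 5.38, 5.22 and 5.33 with AMH. At 24 h it was 5.76, 4.67, 4.57 and 5.99 in controls and 5.89, 4.73, 5.01 and 5.13 with AMH. The 12 h control mean was raised by replicates 1 and 3, and the AMH effect was 0.43 higher at 24 h than at 12 h (95% interval -0.52 to 1.37, adjusted p = 0.95 in limma). Without replicate 3 this difference was -0.030.

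The other NLRP genes, relatives of Nlrp5 expressed in the oocyte, did not pass the test with AMH. The changes of Nlrp14, Nlrp4f and Nlrp9b were -0.04, -0.17 and -0.05 at 12 h and -0.10, -0.35 and -0.14 at 24 h. The germ cell RNA-binding and translation genes Dazl, Zar1 and Btg4 changed by 0.09, -0.05 and 0.14 at 12 h and by -0.06, -0.18 and -0.15 at 24 h. Of the chromatin proteins, H1f8, the oocyte linker histone, changed by -0.09 and -0.24 at these times, and Dppa3, a protector of maternal DNA methylation, by -0.14 and -0.10. Secreted and other members (Oosp1, Tcl1, Omt2a, Omt2b, Bcl2l10, Rfpl4 and Uchl1) had changes between -0.19 and 0.22 at 12 h and between -0.16 and 0.13 at 24 h. In Uchl1 the AMH array differed from its control by -0.34, -0.17, -0.26 and -0.004 in pairs 1 to 4 at 12 h, hardly at all in pair 4. At 24 h it was lower in 2 of 4 pairs. The change of Uchl1 over both times was -0.17, with a narrow spread (1.12-fold lower, SE 0.09, 95% interval -0.38 to 0.04, adjusted p = 0.999 in limma).

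**Figure D4:**
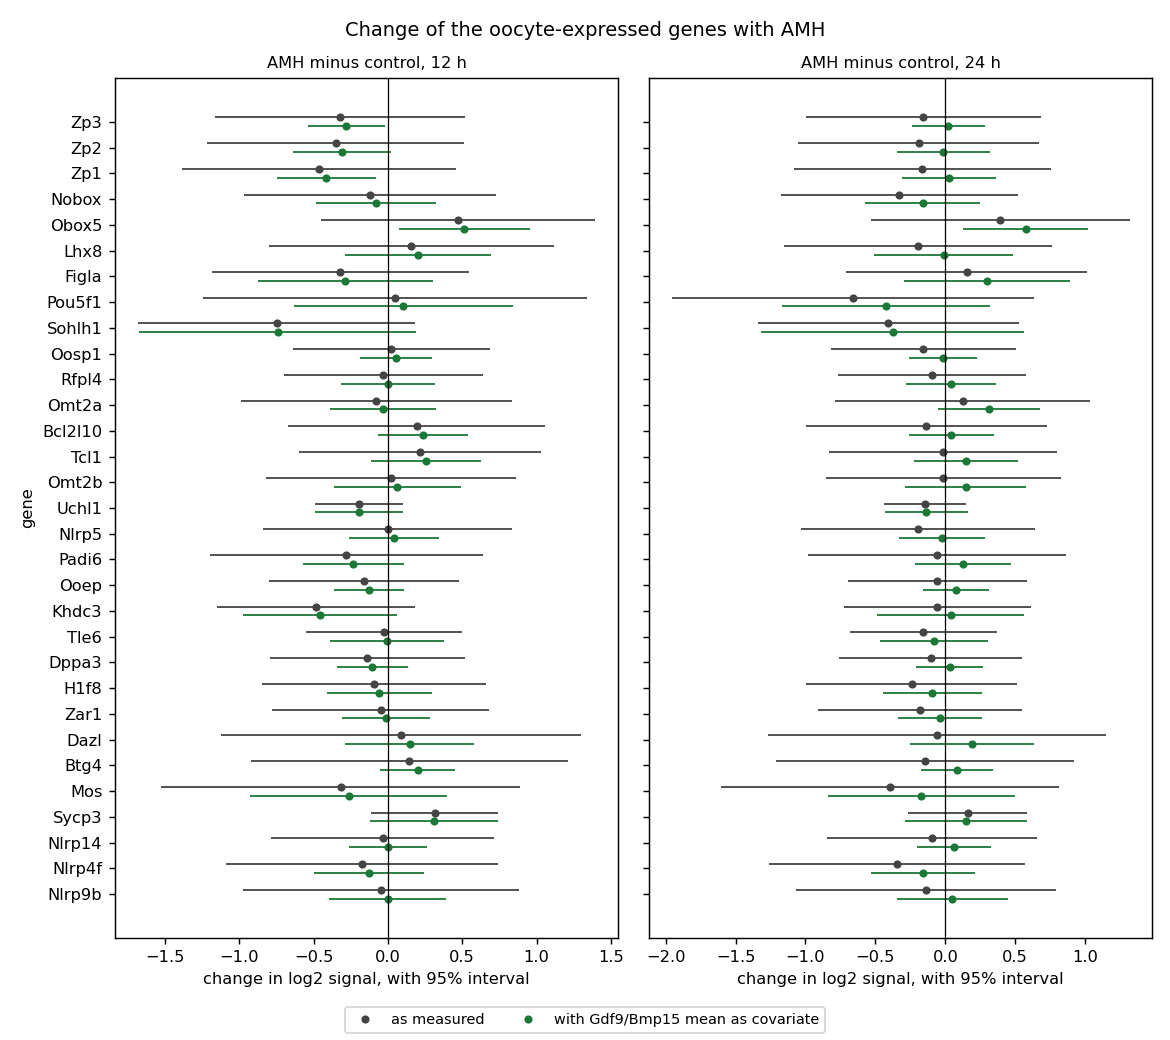
Change with AMH against control (log2, horizontal axis) at 12 h and at 24 h for each of the 31 members, with 95% intervals, as measured (grey) and with the mean of Gdf9 and Bmp15 as a covariate (green). No member passed the threshold in either form, and the median standard error of the 28 co-varying genes at 12 h is 0.39 as measured and 0.16 with the covariate.

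With the mean of Gdf9 and Bmp15 as a covariate still no member passed. The standard errors of the 28 co-varying members shrank at 12 h, and those of Sycp3, Sohlh1 and Uchl1 hardly changed. At 12 h 0 members were called, with 0.0164% of all genes, and 3 had an unadjusted p under 0.05, against 8.09% of genes. These were Zp1 at -0.42 (95% interval -0.75 to -0.08, adjusted p = 0.53 in limma), Zp3 at -0.28 and Obox5 at 0.51. At 24 h 0 members were called, with 0.0164% of all genes, and Obox5 alone, at 0.57 (adjusted p = 0.649 in limma), had an unadjusted p under 0.05, against 5.87% of genes. Zp1, Zp2 and Zp3 then stood at 0.03, -0.02 and 0.02. The mean of both times gave 0 members (0% of genes), and Obox5 at 0.54 (SE 0.14, adjusted p = 0.545 in limma) was the only member with an unadjusted p under 0.05, against 6.26%. The difference between the AMH effects gave 0 members (0.0164% of genes) and none at the unadjusted threshold, against 7.85%.

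Obox5 was 6.01, 5.60, 7.04 and 3.95 in the 12 h controls and 6.29, 5.97, 6.53 and 5.70 with AMH. At 24 h it was 5.19, 4.53, 5.32 and 7.19 in controls and 6.81, 5.38, 5.45 and 6.16 with AMH. As measured it was higher with AMH in 3 of 4 pairs at each time. The exceptions were pair 3 at 12 h (-0.51) and pair 4 at 24 h (-1.03), whose control arrays had the highest oocyte signal of their groups. The largest positive differences also lay in pairs with an extreme array. They were 1.75 in pair 4 at 12 h, whose control array had the lowest oocyte signal of its group, and 1.62 in pair 1 at 24 h, whose AMH array had the highest.

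Between 12 and 24 h no oocyte gene passed the threshold within either arm, while many other genes of the follicle did. In controls 0 of 31 members were called, while 19.1% of all genes were, and 1 member had an unadjusted p under 0.05, against 33.6% of genes. The members' median change was -0.09, 12 above 0 and 19 below, and the median of all genes was -0.01. With AMH 0 of 31 members were called, against 8.28% of genes, and 1 had an unadjusted p under 0.05, against 23.9%. Their median change was -0.13, with 6 above 0 and 25 below. The spread of the members was wider than that of other genes, so a change of a given size was less readily called in them; the 95% intervals of the change in controls ran as low as -1.91 and as high as 2.08. Over the same times the mean of the granulosa genes went from 8.36 ± 0.58 to 9.26 ± 0.35 in controls and from 8.53 ± 0.51 to 9.36 ± 0.48 with AMH (SD, n = 4), and the part of such shifts in the members' values was not tested.

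Sycp3 was the one member whose 24 h arrays lay above its 12 h arrays in both arms. It encodes a protein of the synaptonemal complex, which joins homologous chromosomes in meiotic prophase. Control values were 6.20, 6.58, 6.16 and 6.32 at 12 h and 7.58, 6.62, 6.63 and 6.97 at 24 h. With AMH they were 6.04, 6.69, 6.85 and 6.94 at 12 h and 7.21, 7.03, 7.01 and 7.18 at 24 h. No 24 h array was as low as any 12 h array of its arm; the nearest control arrays of the times were 6.58 and 6.62. This was a separation that 22.3% of all genes showed in controls and 15.1% with AMH. No other member showed it. The change was 0.63 in controls (1.55-fold, SE 0.22, 95% interval 0.16 to 1.10, adjusted p = 0.0554 in limma) and 0.48 with AMH (1.39-fold, SE 0.22, adjusted p = 0.2 in limma), neither past the threshold.

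The change averaged over both arms was examined after these values had been seen. Sycp3 rose by 0.56 (1.47-fold, SE 0.16, 95% interval 0.22 to 0.89, adjusted p = 0.0134 in limma) and was the 1 member called, while 30.4% of all genes were called, and 1 member against 41% of genes had an unadjusted p under 0.05. The call was lost without replicate 1 (0.32, adjusted p = 0.0835 in limma) and without replicate 4 (0.59, adjusted p = 0.0513). Sycp3 also stood apart from the oocyte pattern across arrays, as shown above. With AMH against control it changed by 0.31 at 12 h (SE 0.19, adjusted p = 0.824 in limma) and by 0.16 at 24 h.

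The zona genes were lower at 24 h in both arms without passing the test, by -0.62, -0.53 and -0.46 in controls and -0.32, -0.37 and -0.29 with AMH for Zp1, Zp2 and Zp3. Their adjusted p in limma was 0.471 or higher in controls. Khdc3 had the second smallest p in controls, with a change of -0.49 (SE 0.36, adjusted p = 0.378 in limma), which was 0.016 without replicate 3. Mos was lower by 0.61 in controls and by 0.69 with AMH, with 1 array far above the others in each 24 h group, 7.48 in controls and 7.26 with AMH.

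Nlrp5, also known as Mater, had the second smallest p with AMH. It was 9.48, 8.99, 10.30 and 7.85 in the 12 h controls and 8.71, 8.25, 8.37 and 9.89 in the 24 h controls. With AMH it was 8.88, 9.45, 9.36 and 8.92 at 12 h and 9.61, 7.87, 8.61 and 8.35 at 24 h. The change with AMH was -0.54 (SE 0.46, adjusted p = 0.521 in limma), and 3 of the 4 arrays at 24 h were below all 4 at 12 h.

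**Figure D5:**
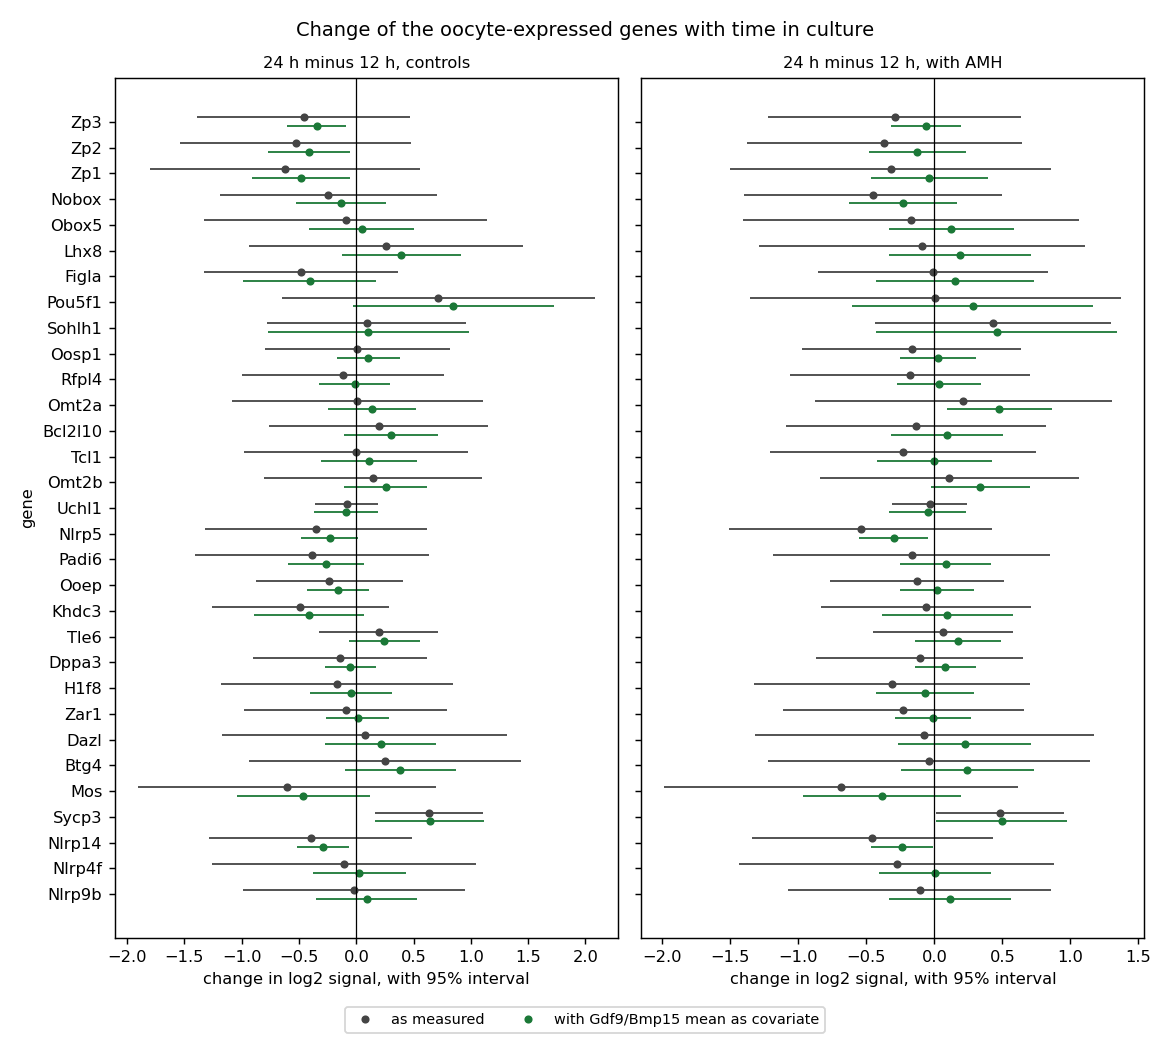
Change from 12 h to 24 h (log2, horizontal axis) in controls and with AMH for each of the 31 members, with 95% intervals, as measured (grey) and with the mean of Gdf9 and Bmp15 as a covariate (green). No member passed the threshold within either arm, and the interval of Sycp3 lies above 0 in both arms.

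Relative to Gdf9 and Bmp15, no member passed the threshold between the times within either arm. In controls 0 members were called with the covariate, against 21.4% of genes, and 5 had an unadjusted p under 0.05, against 35.3%. These were Zp1 (-0.48), Zp2 (-0.41), Zp3 (-0.35, adjusted p = 0.0522 in limma), Nlrp14 (-0.29) and, upwards, Sycp3 (0.64, adjusted p = 0.0524). With AMH 0 members were called, against 9.65% of genes, and 4 had an unadjusted p under 0.05, against 25.4%: Nlrp5 (-0.30), Nlrp14 (-0.24), Sycp3 (0.49) and Omt2a (0.48). The zona genes then stood at -0.04, -0.12 and -0.06, nearer to 0 than in controls. Whether the arms differ in this is the same contrast as the change of the AMH effect, in which none of the 3 passed.

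Averaged over both arms, the adjusted comparison called 3 members, with 31.6% of all genes called. Sycp3 rose by 0.57 (SE 0.16, adjusted p = 0.0131 in limma), and Nlrp14 and Nlrp5 fell by 0.26 (SE 0.08, adjusted p = 0.0151) and 0.27 (SE 0.08, adjusted p = 0.0236), each 1.20-fold. An unadjusted p under 0.05 was reached by 8 members, against 42.4% of genes, and beyond these 3 they were Zp2, Zp3, Mos, Omt2a and Omt2b. These changes are relative: as measured, Nlrp14 changed by -0.43 (adjusted p = 0.302 in limma) and Nlrp5 by -0.45 (adjusted p = 0.326), and Gdf9 itself by -0.43 and Bmp15 by 0.03. Without replicate 4 both were called as measured, Nlrp14 at -0.78 (adjusted p = 0.0477 in limma) and Nlrp5 at -0.84 (adjusted p = 0.0475). In the members' mean, replicate 4 held the lowest 12 h control array (6.44) and the highest 24 h control array (8.48). Leaving it out therefore moves any member that follows this pattern downwards in time, and these calls are no separate support. Around the mean of the 2 reference genes, Gdf9 changed by -0.23 and Bmp15 by 0.23 (adjusted p = 0.0698 and 0.0724 in limma). These values are equal and opposite by construction. A change relative to Gdf9 alone or Bmp15 alone would differ.

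The 4 arrays that stood apart in oocyte signal lie in 4 of the 8 pairs, 2 pairs at each time. Without those pairs, chosen after the values were seen and by the members' own levels, 0 members were called for AMH at 12 h in limma, with 0.386% of all genes called, and 5 had an unadjusted p under 0.05, against 15.6%. At 24 h these counts were 0 members with 0% of genes called, and 3 members against 12.1%. From 12 to 24 h, 7 members were called in controls, all of them lower at 24 h (H1f8, Dppa3, Mos, Nlrp14, Nlrp4f, Zp1 and Zp3), with 8.52% of all genes called in either direction. With AMH 3 members were called, all lower (H1f8, Mos and Nlrp14), with 2.48% of genes called, and in the mean of both arms 17, all lower, with 17% called. In that mean Zp3 changed by -0.76 (adjusted p = 0.0213 in limma), Nlrp14 by -0.86 (adjusted p = 0.00432) and H1f8 by -0.89 (adjusted p = 0.00396), and Sycp3 at 0.44 was no longer called (adjusted p = 0.127). Since the removed arrays were those with extreme values of these same genes, the remaining spread is smaller by choice. At 24 h they were the highest of their groups in the members' mean, control replicate 4 (8.48) and AMH replicate 1 (8.33). At 12 h they were the highest and the lowest control array (8.68 and 6.44). The removal thus lowers the 24 h means, and the direction of the changes in time is also partly set by the choice. The counts are a description of 8 arrays.

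The second list of oocyte genes also held no call in these comparisons. It moved with the members across arrays (r = 0.99), so it is no separate measurement. For AMH, 0 of 26 were called at 12 h and 0 at 24 h in limma, against 0% and 0.0164% of all genes. None passed the unadjusted threshold, against 6.47% and 4.07% of all genes, and the medians were -0.07 and -0.15. From 12 h to 24 h 0 of 26 were called in controls, against 19.1% of all genes, and 0 with AMH, against 8.28%. The medians were -0.02 and -0.18.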

How the data were processed

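RNA of 16 follicle samples was measured on Affymetrix mouse arrays, 4 per group. The authors deposited linear signal intensities per probe set that MAS5 had produced, per the submitters' processing notes. The MAS5 version is not given in the sources used here. Every array had a trimmed mean of 150.001 with 2% trimmed at each end. Array medians lay between 27.8 and 40.2, and the correlation between arrays of a group between 0.923 and 0.977. The number of arrays limits the precision.

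Intensities were turned into log2(signal + 1.46), the offset being the 10th percentile. Of 45101 probe sets, 34945 carried 1 gene symbol, 932 carried several and were not used, and symbols were updated through gene IDs to RefSeq on GRCm38.p6. A probe set was kept if its mean reached the 40th percentile of means, a log2 of 4.18, and the brightest one was used per gene. Changes were fitted over all 12172 genes with limma 3.58.1 in R 4.3.3, with Benjamini-Hochberg adjustment and a threshold of 0.05. The script was tested on simulated data. AMH was tested with the 8 pairs as a block, since the series' design text calls arrays comparable in pairs and both arms came from one pool; time was tested on 4 group means. Deviations of paired arrays correlated at 0.299, 0.349, 0.560 and 0.214 in the 12 h pairs and -0.437, 0.327, 0.200 and -0.287 in the 24 h pairs. The labels do not say whether pools were separate across replicates, so p-values measure the spread between these samples. Plots were made in Python 3.11.15 with matplotlib 3.10.9.

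The members and marker lists were chosen with earlier results of these data known. Values in all arrays are given for the members past the threshold, or the 2 with the smallest p, in each comparison, for the zona genes, and for the members with the largest and smallest range. Mos, Nlrp14, Obox5 and the other members named with single values, and the change over both arms, were chosen after their values were seen. Alternatives were other offsets, filters, scalings and probe set rules, array weights, the covariate, other blocks and each replicate left out.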

Additional observations from a re-analysis of the deposited data

Results flagged for a closer look

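In each group of 4 arrays the gap between the most extreme array and its nearest neighbour was divided by the group's range for each member, 124 groups of values in all, and 9 exceeded Dixon's 95% critical value. Chance flags about 1 in 20 groups, and members that vary together are flagged together.

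In the 24 h controls replicate 4 was far above the others for 5 members. The ratio was 0.843 for Zp3 (10.27 against 8.88 to 9.10), 0.934 for Mos (7.48 against 5.24 to 5.39) and 0.835 for Zar1 (8.97 against 7.63 to 7.85). For Tcl1, an AKT coactivator, it was 0.915 (8.67 against 7.19 to 7.31), and for Omt2a 0.939 (7.88 against 6.25 to 6.35).

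With AMH at 24 h replicate 1 was far above the others for 3 members. The ratio was 0.912 for Nobox (7.71 against 6.24 to 6.37), 0.857 for Ooep (10.81 against 9.65 to 9.82) and 0.950 for Mos (7.26 against 4.78 to 4.91). With AMH at 12 h replicate 2 was low for Omt2b at 7.54 against 7.80 to 7.83, a ratio of 0.879 over a narrow range.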

How the results depend on the processing

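The median change of the members stayed within 1 SD of the reported value, the SD being that of the members’ median between pairs for AMH and between arrays of a group for time, in all 105 combinations of 15 alternatives and 7 comparisons. That SD is wide: without the 4 pairs the median went from -0.09 to -0.61 for time in controls, from -0.13 to -0.49 for time with AMH, from -0.13 to -0.56 for both arms and from -0.05 to -0.23 for AMH at 12 h, and the difference of AMH effects turned from -0.08 to 0.071. Those pairs were chosen by the members' own levels and include the highest arrays at 24 h, so the lower medians for time follow in part from that choice. For the 6 comparisons fixed in advance, 0 members were called in 86 of 90 combinations. The exceptions were time in controls with the mean of all probe sets (1, Sycp3, adjusted p = 0.0482 in limma), with array weights (1, Khdc3 at -0.79, adjusted p = 0.0489 in limma) and without the 4 pairs (7), and time with AMH without the 4 pairs (3). For time over both arms the count of members, 1 as reported, was 3 with the covariate, 17 without the 4 pairs and 0 to 2 with a replicate left out.

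Counts over all genes moved more. For AMH at 12 h (0 as reported) they were 1 with quantile normalization, 2 with the covariate, 3 with array weights and 47 without the 4 pairs. For AMH at 24 h (2) they were 0 with no filter, 0 with quantile normalization, 0 with the mean of probe sets, 7 with array weights, 0 without the 4 pairs and 0 to 1 with a replicate left out. The mean of both times (0) gave 6 with array weights and 0 to 1 with a replicate left out. The difference of AMH effects (0) gave 1 with quantile normalization, 2 with the covariate, 21 with array weights, 10 without the 4 pairs and 0 to 1 with a replicate left out. Time in controls (2330) gave 3945 with array weights, 1037 without the 4 pairs and 1185 to 1552 with a replicate left out. Time with AMH (1008) gave 564 with median centring, 1857 with array weights, 302 without the 4 pairs and 344 to 638 with a replicate left out. Time over both arms (3706) gave 2072 without the 4 pairs and 2373 to 3037 with a replicate left out.

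The sign turned for Sycp3 with AMH at 12 h without the 4 pairs (-0.027). With a replicate left out, Pou5f1 with AMH at 24 h ranged from -1.08 to 0.033 (above 0 without replicate 4). Khdc3 ranged from -0.030 to 0.93 in the change of the AMH effect and from -0.95 to 0.016 in time in controls, both turned without replicate 3. Without the replicate block the AMH comparisons called 0 genes at 12 h and 0 at 24 h, and 0 members at either time. With the replicate number as a block across times, 2634 genes were called in controls, 1235 with AMH and 3938 over both arms, with no call among the members gained or lost. Fewer arrays remain when replicates or pairs are left out, but some counts rose without the 4 pairs. What moved the counts was not tested. For Pou5f1, Sohlh1 and Figla the low signal limits what can be read.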
